A study of Homo sapiens with 4 samples.

Results

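The proteins that build spliceosomal small nuclear ribonucleoproteins (snRNPs), and the factors that transcribe, trim, export and assemble their small nuclear RNAs (snRNAs), were followed as messenger RNA levels in U2OS cells, an established human osteosarcoma line. Genes were chosen by symbol alone: Sm and U1 or U2 proteins (SNRP symbols), LSm proteins (LSM), pre-mRNA processing factors (PRPF), the snRNA promoter complex (SNAPC), Integrator (INTS), and the assembly and export factors GEMIN2 to GEMIN8, SMN1, SMN2, PHAX and COIL. Of 39519 genes in the table, 67 matched after 56 pseudogene symbols were dropped. A short hairpin RNA against PURB, a single-stranded nucleic acid binding protein, was induced with doxycycline at 5.0 µg/ml (sh-PURB, here the knockdown, 2 libraries), and the control line carried sh-NC and received DMSO (here the control, 2 libraries), in both cases for 72 h. Whether the control line carries the same inducible cassette is not stated in the labels. Hairpin and doxycycline therefore cannot be told apart, and nothing in the labels states whether libraries of 1 group are separate cultures, so p-values measure the spread between libraries, which may be technical. Values are TPM, a share of all transcripts corrected for transcript length, which carries no read depth, so no counting interval can be given. RNA from whole cultures does not separate less RNA per cell from fewer expressing cells.

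Each spliceosomal snRNA of the Sm class is transcribed by RNA polymerase II from a promoter bound by SNAPc, cut at its end by Integrator, exported by PHAX, wrapped in a ring of Sm proteins by the SMN complex, and returned to the nucleus, where coilin marks the Cajal body. U6 and U6atac differ in their polymerase and their ring: RNA polymerase III makes them, and a ring of LSm2 to LSm8 proteins holds their uridine tail. The mature particles, with the PRPF proteins of the U4/U6.U5 tri-snRNP, form the spliceosome.

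To show what these proteins handle, the sequences of a U1 and a U4 RNA are given from the GENCODE transcripts, 5′ to 3′ and with T for U. Capitals mark the Sm site, searched as AATTTNT on the RNA strand.
RNU1-1: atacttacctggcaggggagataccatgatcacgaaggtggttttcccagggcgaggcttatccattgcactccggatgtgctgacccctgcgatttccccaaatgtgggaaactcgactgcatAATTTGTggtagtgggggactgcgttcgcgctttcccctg
RNU4-1: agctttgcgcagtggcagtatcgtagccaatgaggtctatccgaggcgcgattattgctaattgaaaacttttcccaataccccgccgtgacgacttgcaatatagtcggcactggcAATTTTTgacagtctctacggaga
The letters were found in 8 of the 11 snRNA genes with a level (all but RNU2-1, RNU6-1 and RNU6ATAC), against 7.82% of 35116 promoter windows of 300 bases searched on the same strand. The letters were picked as the site of these RNAs and the windows are longer than the RNAs, so the comparison is a description only. RNU2-1 is counted below among the genes with an Sm ring, although it lacks this exact run of letters. On GRCh38 the genes shown lie on chromosome 1 at 16514122 to 16514285 (RNU1-1, minus strand) and chromosome 12 at 120293097 to 120293237 (RNU4-1, minus strand).

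The knockdown was checked first. PURB mRNA was at 5.29 and 6.55 TPM in the control, against 2.46 and 2.69 TPM in the knockdown, so the groups did not overlap. The limma difference was -0.95 (SE 0.17) on the log2(TPM + 1) scale with an adjusted p of 0.102 over all genes, and the two-sided exact permutation p was 0.333, which no 2 by 2 comparison can go below. Of the bone and mesenchymal markers, SPARC (220 to 262 TPM) and VIM (298 to 342 TPM) were abundant and RUNX2 was low (1.92 to 3.92 TPM), while SP7, IBSP, BGLAP and ALPL stayed below 0.240 TPM in every library. SPP1, another bone matrix gene, was at 33.8 and 30.7 TPM in the control, against 6.59 and 5.80 TPM, and COL1A1 was at 13.6 and 39.7 against 9.53 and 21.6 TPM. Of epithelial genes, KRT8 and KRT18 were at 84.2 to 115 TPM, EPCAM at 1.79 to 2.44 TPM and CDH1 at 0.0954 to 0.563 TPM. Of leukocyte genes, CD68 was at 2.21 to 4.67 TPM, PTPRC at 0.651 to 1.63 TPM, LYZ at 0 to 2.11 TPM and CD3E at 0 to 0.0581 TPM. The part of these genes' cell types in the results was not tested.

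Across the 67 genes, levels in sh-PURB stayed close to control, with SNAPC1 as the main exception. All but LSM11 passed the filter on low values, 1 TPM or more in 2 or more libraries. The ratio of mean TPM, sh-PURB to sh-NC, ran from 0.768 (GEMIN2) to 2.16 (SNAPC1) with a median of 1.05, and the next highest ratio was 1.44 (SNRPA1). It lay between 0.8 and 1.25 for 57 of 66 genes (86.4%), compared with 61.4% of all 14269 tested genes. The 66 genes were also more abundant (median mean level 13.6 TPM against 6.39 TPM), and these shares were not matched for level. By limma, 0 of the 66 were called at an adjusted p under 0.05, where 0.287% of all tested genes were (0.0841% higher and 0.203% lower). Without adjustment, 2 had p under 0.05 (SNAPC1 and SNRPA1, both above control), which is 3.03% beside 15.3% of all tested genes (5.77% above and 9.53% below).

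Small shifts leaned upward. The median difference of the 66 genes was 0.06 on the log2(TPM + 1) scale, with 42 above 0 and 24 below, where all tested genes had a median of -0.06 and 41.6% above 0. The knockdown pair was entirely above the control pair for 18 genes (27.3%, against 18.6% of all tested genes) and entirely below it for 6 (9.09%, against 29.3%). The lean depended on 1 library: without sh-PURB replicate 1 the median was -0.00, with 32 genes above 0 and 34 below. The members' median with all libraries also moved with scaling, to 0.21 when TPM was recomputed without the most abundant RNAs and the mitochondrial genes. The median of all tested genes rose with it, from -0.06 to 0.08.

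**Figure D1:**
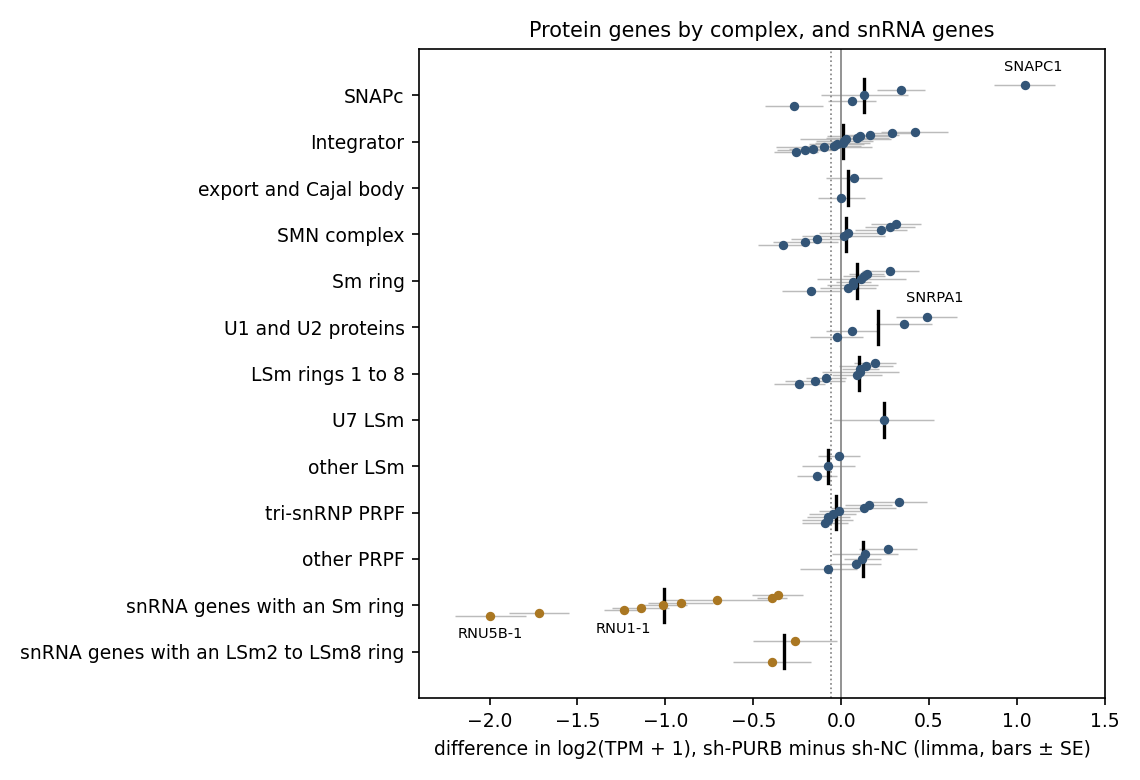
Difference in log2(TPM + 1), sh-PURB minus sh-NC, for each tested gene by complex (points, bars ± SE from limma), with the median of each group as a black bar and the median of all tested genes as a dotted line. Protein genes (blue) gather near 0 apart from SNAPC1 at 1.05, while the snRNA genes with an Sm ring (brown) have a median of -1.01.

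The snRNA promoter complex held the one large difference. SNAPC1 encodes a core subunit of SNAPc, which binds the proximal sequence element of snRNA promoters and recruits TBP. It was at 7.72 and 10.5 TPM in the control, against 19.6 and 19.7 TPM in the knockdown, so both knockdown libraries were nearly equal and well above both controls (9.12 ± 1.99 against 19.7 ± 0.0660 TPM, mean ± SD, n = 2 each). The limma difference was 1.05 (SE 0.17, adjusted p = 0.0887), which put it 301st of 14269 genes by p and above the threshold. When protein-coding genes alone were fitted and rescaled to a common sum, the difference was 1.09 with a limma adjusted p of 0.0150, where 3.48% of 11925 genes were called (1.33% higher and 2.15% lower). The difference stayed between 0.84 and 1.25 with any 1 library left out, at limma adjusted p-values of 0.153 to 0.453.

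The other SNAPc subunits did not share this size. SNAPC5, a small subunit that joins the core, was at 8.15 and 7.87 TPM in the control, against 11.1 and 9.80 TPM in the knockdown, a ratio of 1.30 (limma adjusted p = 0.334). SNAPC2, which is dispensable for the core in vitro, was at 7.93 and 10.2 TPM against 7.16 and 7.46 TPM, below control in both libraries (0.806 of control, limma adjusted p = 0.514). SNAPC3, which contacts DNA with the largest subunit, was at 5.72 and 5.80 TPM against 6.25 and 5.87 TPM, narrowly above control in both libraries (ratio 1.05). SNAPC4, that largest subunit with its Myb repeats, was the least abundant at 1.13 and 1.96 TPM against 1.57 and 1.94 TPM, and its groups overlapped. By level, SNAPC1 thus stood beside SNAPC2 and SNAPC5 in the controls and above every other subunit in the knockdown libraries. Of the 5 subunits, SNAPC1 included, 3 lay above control without overlap (60%, against 18.6% of all tested genes). Only 1 lay below (20%, against 29.3%).

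**Figure D2:**
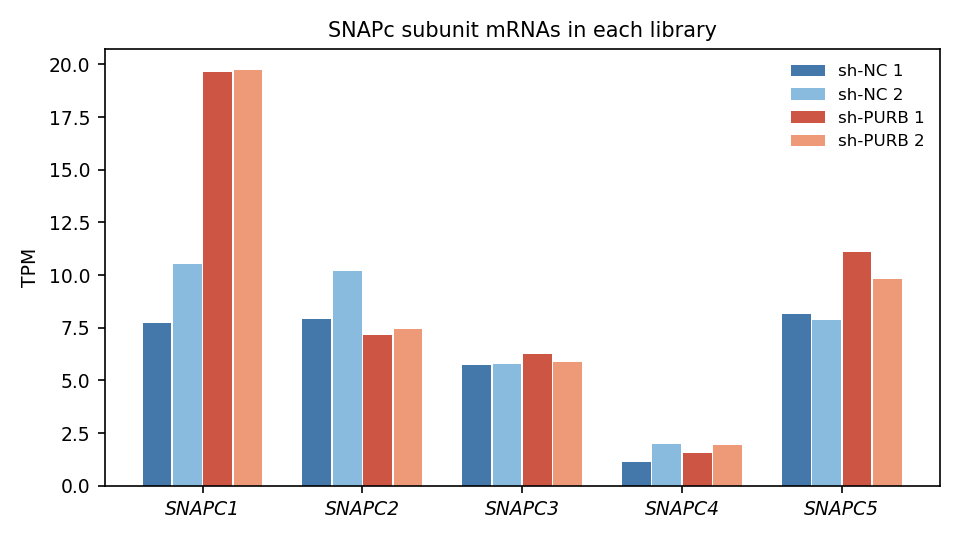
TPM of the 5 SNAPc subunit mRNAs, with 1 bar for each library. The blue sh-NC bars of SNAPC1 reach 7.72 and 10.5 TPM, and the red sh-PURB bars reach 19.6 and 19.7 TPM.

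SNAPC1 lies on chromosome 14 at 61762357 to 61796428, plus strand (GRCh38, GENCODE). As the member with the largest difference, its promoter is shown: the 250 bases before the RefSeq start site (GRCh38.p14, chr14:61762170-61762419, plus strand), whose last part the GENCODE gene model already includes. Capitals mark the GC box read by SP1 (GGGCGG), which begins 53 bases before the start.
SNAPC1: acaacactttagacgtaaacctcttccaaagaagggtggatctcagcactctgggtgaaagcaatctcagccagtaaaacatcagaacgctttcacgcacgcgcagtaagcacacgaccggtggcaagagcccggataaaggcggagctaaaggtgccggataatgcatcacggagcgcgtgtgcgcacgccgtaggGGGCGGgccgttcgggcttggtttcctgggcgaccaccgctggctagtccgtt
The CCAAT box (CCAAT), the TATA box (TATAAA), the element bound by ATF4 complexes (TGATGNAA) and a GGN repeat of the kind PUR proteins bind (GGNGGNGGNGG) were not in this window on either strand. A promoter was matched for 52 of the 67 genes. Over both strands, the GC box letters were in 61.5% of these and in 42.6% of all 35116 promoters, the CCAAT box in 42.3% and 32%, the TATA box in 1.92% and 10.7%, the ATF4 element in 5.77% and 3.14%, and the GGN repeat in 11.5% and 18%.

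Integrator, the complex whose INTS11 endonuclease and INTS9 partner cut nascent snRNAs, was spread evenly about 0. Of 14 tested subunits 8 lay above 0 and 6 below, with a median of 0.01. Both knockdown libraries were above both controls for 2 subunits (14.3%, against 18.6% of all tested genes). They were below both controls for 2 (14.3%, against 29.3%). The median changed sign with the library left out, from -0.04 without sh-NC replicate 1 to 0.07 without sh-PURB replicate 1.

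INTS7, a backbone subunit, was at 4.91 and 6.60 TPM in the control, against 8.66 and 7.30 TPM in the knockdown (0.42, SE 0.19, limma adjusted p = 0.385), and its difference was 0.24 without sh-NC replicate 1. INTS13, of the module with INTS10 and INTS14, was at 10.9 and 9.51 against 12.3 and 13.0 TPM (limma adjusted p = 0.398). INTS4, the scaffold that joins INTS9 and INTS11, was at 19.1 and 17.6 against 14.3 and 16.0 TPM (limma adjusted p = 0.409). The first 2 lay above control in both knockdown libraries and INTS4 below. Its copies INTS4P1 and INTS4P2 were at or below 0.559 TPM, and AAMDC, which overlaps it on the opposite strand, was at 11.9 and 12.1 TPM in the control, against 6.78 and 9.91 TPM in the knockdown, so that without a stated strand setting their reads cannot be told apart. Other named genes, INTS8 with CCNE2 among them, also overlap an expressed gene on the opposite strand and carry the same limit.

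INTS2 (ratio 0.883) also lay below control in both libraries. INTS8, which with INTS6 holds protein phosphatase 2A on the complex, had a ratio of 0.860 with overlapping groups. The nuclease INTS11 was at 11.8 and 11.4 TPM against 11.5 and 15.0 TPM, and overlapped too. Some subunits followed the library number more than the hairpin: INTS1, the largest subunit, was at 16.2 TPM in sh-NC replicate 1 and 15.9 TPM in the knockdown replicate 1, but at 25.4 and 22.5 TPM in the libraries numbered 2. INTS10, the most abundant subunit, was at 21.4 and 23.8 TPM in the libraries numbered 1 and at 28.2 and 29.7 TPM in those numbered 2. Over all 66 genes, both libraries numbered 2 lay above both numbered 1 for 11 and below for 13 (25.1% and 10.7% of all tested genes).

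Export and Cajal body genes gave no separation. PHAX, the adaptor that carries capped snRNAs out of the nucleus, was at 18.9 and 18 TPM in the control, against 20.1 and 16.9 TPM in the knockdown. COIL, which encodes coilin, was at 6.29 and 6.47 against 7.57 and 6.03 TPM. In both, the sh-NC values lay between the sh-PURB values.

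The SMN complex, which loads Sm proteins onto snRNAs in the cytoplasm, had members on both sides. SMN1 and SMN2 are near-identical copies whose reads can be split between them, so they were also summed. The sum was 37.5 and 41.7 TPM in the control, against 40.4 and 36.4 TPM in the knockdown, overlapping groups with a difference of -0.04 (SE 0.12, limma adjusted p = 0.902). Alone, SMN1 was at 0.909 and SMN2 at 1.02 of control.

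GEMIN2, which grips the partly formed Sm ring, was at 7.93 and 7.39 TPM in the control, against 5.61 and 6.15 TPM in the knockdown, the lowest ratio of all 66 genes (difference -0.33, SE 0.14, limma adjusted p = 0.356). GEMIN6 and GEMIN7, which pair with each other through Sm-like folds, lay on the other side. GEMIN6 was at 7.07 and 8.04 against 10.2 and 9.08 TPM, and GEMIN7 at 5.82 and 6.15 against 7.91 and 7.06 TPM (limma adjusted p = 0.393 and 0.426). GEMIN5, the subunit that recognises snRNA precursors, was at 5.27 and 6.19 against 6.92 and 6.79 TPM. Thus, of the 8 tested genes, 3 lay above control without overlap (37.5%, against 18.6% of all tested genes). Only 1 lay below (12.5%, against 29.3%). The median of the 8 genes, 0.03, was -0.11 when sh-NC replicate 1 was left out and 0.23 when sh-NC replicate 2 was.

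The Sm ring genes had the highest median level of the complexes, 55.8 TPM, and lay near control. Mean TPM over the 4 libraries ran from 13.8 (SNRPF) to 99.1 (SNRPD2). Of 8 genes 7 lay above 0, with a median difference of 0.09, which was 0.01 without sh-PURB replicate 1. Their summed TPM was 431.5 and 415.5 in sh-NC, and 489.2 and 417.0 in sh-PURB, so only sh-PURB replicate 1 stood above the controls.

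SNRPD2, the D2 subunit, was at 97.9 and 90.2 TPM in the control, against 108 and 99.9 TPM in the knockdown (ratio 1.11, limma adjusted p = 0.559). SNRPF was at 11.3 and 13.4 against 16.8 and 13.7 TPM (ratio 1.23), and SNRPG had a ratio of 1.10. SNRPB, the B subunit, shows the spread within the knockdown: 69.4 TPM in the knockdown replicate 1 and 42.5 TPM in replicate 2, on either side of the controls at 55.0 and 45.6 TPM. SNRPN, its imprinted near-copy, which shares a locus with SNURF and SNHG14 so that their reads may be mixed, was the 1 gene below 0 (0.895 of control). The 20 pseudogene symbols of SNRPG and the 10 of SNRPE took 1.40% and 0.481% of the summed level of gene and copies.

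The 4 U1 and U2 proteins with SNRP symbols had a median of 0.21, which was 0.06 without sh-PURB replicate 1. The 17 other proteins of the U1, U2 and U5 particles had a median of 0.06 with all libraries, and among them the U1 protein SNRNP70 had a ratio of 0.912 with overlapping groups. SNRPA1, the U2 A′ protein that pairs with SNRPB2 on U2 RNA, was at 17.1 and 18.1 TPM in the control, against 29.2 and 21.5 TPM in the knockdown (ratio 1.44, difference 0.49, SE 0.17, limma adjusted p = 0.297). SNRPC, the U1-C protein that steadies the contact with the 5′ splice site, was at 47.2 and 42.8 against 66.3 and 50.4 TPM (ratio 1.30, limma adjusted p = 0.384). Both lay above control in both libraries. The 18 pseudogene symbols of SNRPC took 8.77% of the summed level, so part of its signal is uncertain. SNRPA, the U1-A protein, and SNRPB2 had ratios of 0.975 and 1.04 with overlapping groups.

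The LSm genes lay on both sides of control. LSM2 to LSM7 are shared by the nuclear ring on U6, which is closed by LSM8, and the cytoplasmic ring of mRNA decay, closed by LSM1. Of the 8 genes 5 lay above 0 (median 0.10, -0.02 without sh-PURB replicate 1 and -0.03 without sh-NC replicate 2). LSM7 was at 26.9 and 29.7 TPM in the control, against 34.3 and 30.8 TPM in the knockdown, and LSM6 at 13.9 and 15.1 against 13.3 and 11 TPM, so 2 subunits of 1 ring lay on opposite sides (limma adjusted p = 0.509 and 0.506). LSM4 (ratio 1.08) lay above control in both libraries, and LSM1 (1.12), LSM8 (0.896) and the most abundant member LSM5 (1.07) overlapped.

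The U7 snRNP, which trims histone messages, replaces part of the Sm ring by LSM10 and LSM11. LSM10 was at 4.56 and 6.11 TPM in the control, against 8.49 and 4.83 TPM in the knockdown, so its difference rested on sh-PURB replicate 1 and became -0.11 without it. LSM11 was at 0.809 and 0.822 against 0.762 and 0.688 TPM, under the filter. LSM14A, an RNA-binding protein of P-bodies, had a ratio of 0.904 and lay below control in both libraries, while LSM14B (0.990) and LSM12 (0.944) overlapped.

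**Figure D3:**
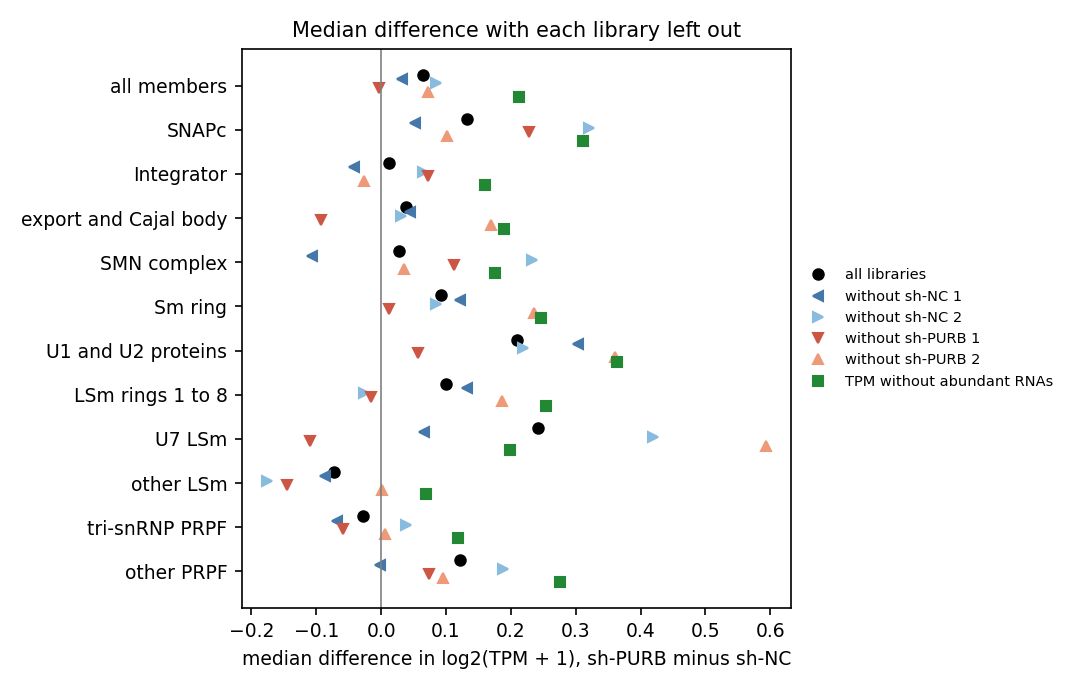
Median difference in log2(TPM + 1), sh-PURB minus sh-NC, for all tested members and for each complex, with all libraries, with each library left out, and with TPM recomputed without the most abundant RNAs and mitochondrial genes. The median of all members is 0.06 with all libraries and -0.00 without sh-PURB replicate 1.

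The PRPF genes of the tri-snRNP were centred close to control. Of 8 genes 3 lay above 0 and 5 below, with a median of -0.03 that was 0.12 with recomputed TPM. PRPF8, the central scaffold of the catalytic core, was at 11.8 and 15.4 TPM in the control, against 17.4 and 16.9 TPM in the knockdown, above control in both libraries (ratio 1.26, limma adjusted p = 0.409). PRPF38A (ratio 1.13), which joins with the tri-snRNP before activation, was above control too. PRPF6, a bridge between U5 and U4/U6, and PRPF4, of the U4/U6 particle, overlapped at 0.932 and 1.12, and PRPF31 had a ratio of 0.993.

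Among the remaining PRPF genes, PRPF19, the ubiquitin ligase of the complex that joins at activation, was at 12.7 and 16.7 TPM in the control, against 18.2 and 17.3 TPM in the knockdown (ratio 1.21, limma adjusted p = 0.512). PRPF40B (1.11) and the second-step factor PRPF18 (1.06) overlapped.

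Genes of the same pathway outside the chosen symbols were read from 4 lists of proteins. None of 68 tested was called by limma over all genes, where 0.287% of all tested genes were. At an unadjusted limma p under 0.05, 6 lay above and 1 below control (10.3% together, beside 15.3% of all tested genes). The median of the 68 was 0.01. In assembly, STRAP, an SMN partner, was at 29.4 and 28.5 TPM in the control, against 47.6 and 36.9 TPM in the knockdown, and WDR77, the partner of the arginine methyltransferase that modifies Sm tails, at 13.9 and 13.2 against 21.6 and 17.2 TPM. WDR77 overlaps ATP5PB (139 to 187 TPM) on the opposite strand, so their reads may be mixed. LARP7, which binds 7SK and U6, lay below control (ratio 0.784). The limma adjusted p-values of STRAP, WDR77 and LARP7 ran above the threshold, the lowest being 0.225.

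INTS3 also has partners in the SOSS complex, which binds single-stranded DNA. NABP1 was at 13.6 and 15.3 TPM in the control, against 23.2 and 21.4 TPM in the knockdown (ratio 1.55, difference 0.60, SE 0.13, limma adjusted p = 0.131, and 0.0478 among protein-coding genes alone). INIP was at 9.43 and 9.28 against 6.98 and 5.92 TPM (0.690 of control, limma adjusted p = 0.234). NABP2, the alternative to NABP1 in the complex, was at 9.41 and 9.26 against 10.5 and 9.58 TPM (limma adjusted p = 0.789). ZC3H8, of the little elongation complex at snRNA genes, had a ratio of 1.44. In the particles, the tri-snRNP protein SART1 (1.36) and the prolyl isomerase PPIH (1.23) lay above control, as did SF3B5 of U2 (1.27). SNRNP35 of the minor U11/U12 particle lay below (0.762), SF3B1 had a difference of -0.19 and EFTUD2 of U5 one of 0.19.

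The RNAs that these proteins carry lay below control, with 1 of 11 called, where 0.287% of all tested genes were (0.203% lower). Of 12 snRNA genes listed, RNU7-1 was at 0 in every library and 11 were tested. All 11 had differences below 0, where 41.6% of all tested genes were above 0. The U1 gene RNU1-1 fell from 4603 and 5081 TPM to 1895 and 2221 TPM, 2.35-fold (difference -1.24, SE 0.11, limma adjusted p = 0.0464). At a pseudocount of 0.1, with no filter and without the trend the difference of RNU1-1 stayed at -1.24, but the limma adjusted p was 0.0565, 0.200 and 0.0737, and no gene of the table was called. With any 1 library left out, where again no gene was called and 1 arm held a lone library, it ran from -1.35 to -1.12, and with quantile normalization it was -0.61. RNU4-1 was at 1473 and 1990 TPM in the control, against 480 and 562 TPM in the knockdown, and RNU5B-1 at 596 and 650 against 127 and 189 TPM (limma adjusted p = 0.0517 for each).

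All 9 tested genes whose RNA carries an Sm ring lay below control in both knockdown libraries, where 29.3% of all tested genes did, with a median of -1.01. RNU6-1 and RNU6ATAC, which carry the LSm ring, had differences of -0.26 and -0.39 and overlapped. RNU6-1 was at 52.7 and 39.3 TPM in the control, against 45.8 and 31.1 TPM in the knockdown. Identical U1 copies share their reads, and RNAs this short can be estimated poorly. Other U6 symbols were quantified apart from RNU6-1 (RNU6-323P at 0 to 4.11 TPM and RNU6-834P at 0 to 4.84 TPM). RNU6-1 alone is therefore not the U6 level, and whether the ring classes differ was not tested. Abundant structured RNAs (the signal recognition particle RNAs RN7SL1 and RN7SL2, with RN7SK, RMRP and RPPH1) made up 59.4% and 62.2% of the control libraries and 63.2% and 65.2% of the knockdown libraries. With these and the mitochondrial genes removed and TPM recomputed, the median of the Sm class was -0.86. Whether the RNA and protein differences are linked was not tested.

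**Figure D4:**
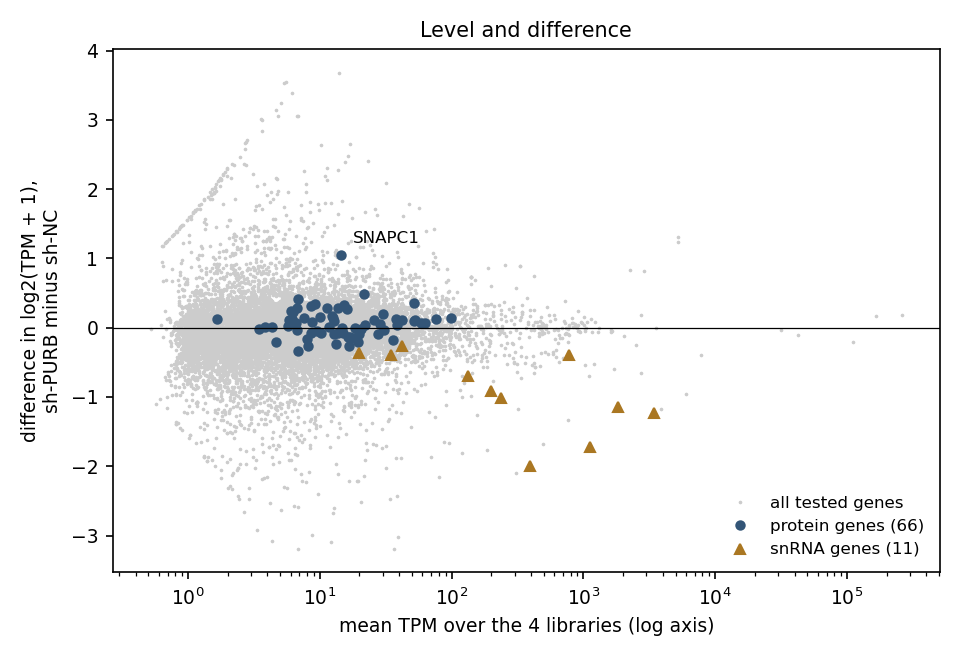
Difference in log2(TPM + 1), sh-PURB minus sh-NC, against mean TPM on a log axis, for all tested genes (grey), the 66 protein genes (blue circles) and 11 snRNA genes (brown triangles). SNAPC1 at 1.05 stands above the other protein genes, and all 11 snRNA genes are below 0.

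The 66 genes resembled the other tested genes in base composition and were shorter and more abundant. Their longest transcripts had a median of 2632.5 bases and 47.0% GC, against 3301 bases and 47.6% for all tested genes, and their median mean level was 13.6 TPM against 6.39 TPM. Across the 66 genes, which share libraries, Spearman's rho of the difference was -0.11 with transcript length, 0.035 with GC content and 0.013 with mean log2 level, given as descriptions.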

How the data were processed

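The authors deposited TPM values per gene symbol, in 1 table of all 4 libraries and 1 per library, which held the same values. Per the labels' protocols, ribosomal RNA was depleted from total RNA before library construction. Without giving roles, the submitters' processing notes list the tools kallisto 0.44.0, bcl2fastq 2.19, DESeq2 and sleuth, and 2 builds, GRCm38 and GRCh38; strand, annotation release and the summing of transcripts to genes are not given in the sources used here. TPM columns summed to 977570 to 981061, and a row with no name (0.921% to 1.66%) was left out. TPM values of 1 library depend on each other through their common total.

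The 14269 genes at 1 TPM or more in 2 or more libraries were compared as log2(TPM + 1), which understates changes of low genes, in limma 3.58.1 under R 4.3.3 (empirical Bayes with intensity trend, 2 residual and 2.92 prior degrees of freedom), p-values being adjusted by Benjamini-Hochberg across every tested gene, with a threshold of 0.05. Steps were tested on simulated data. Ratios are of mean TPM. Complexes are described by counts and medians, with no set test.

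Members, lists and tests were chosen with earlier results of these data known. Genes named were PURB, SMN1, SMN2, called members, members under the filter, the most abundant member and up to 4 (Integrator 6) with the smallest p in each complex, and up to 3 from each list of other pathway genes. Other names (INTS4P1, INTS4P2, AAMDC, CCNE2, ATP5PB, SNURF, SNHG14, INTS1, LSM8, SNRPB, SNRPE, SNRNP70, NABP2, PRPF31, SNAPC3, RNU6-1, RNU6-323P, RNU6-834P, RNU6ATAC, RNU2-1 and RNU7-1) were chosen after values were seen. Coordinates and transcripts came from GENCODE v29 on GRCh38 and promoters from RefSeq (GRCh38.p14). Figures used Python 3.11.15 and matplotlib 3.10.9.

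Alternatives were quantile normalization, rescaling by median ratios, protein-coding genes only, TPM recomputed after removing mitochondrial genes and the 5 genes above 1% of a library, a filter at TPM 5 or none, pseudocounts of 0.1 and 0.5, a replicate block, limma without trend or with robust moderation, each library left out, and SMN1 and SMN2 summed.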

Additional observations from a re-analysis of the deposited data

How the results depend on the processing

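The limits are set by 2 libraries a group and by TPM without depth. By limma, the 41 genes called overall (12 higher, 29 lower) became 0 at a pseudocount of 0.1, with no filter, without the trend, and without any 1 library (range 0 to 0), 80 with median-ratio rescaling, 118 with quantile normalization, 121 with the filter at TPM 5, 125 with robust moderation and 415 among protein-coding genes. With recomputed TPM there were 176, of which 56.2% were higher in place of 29.3%. The replicate block gave 118 calls; library numbers are shared by the groups only as numbers (correlation of deviations 0.193 across genes for the libraries numbered 1), and the block called no member.

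Members called stayed at 0 except among protein-coding genes, where SNAPC1 made it 1, and PURB was then called too (-0.91, limma adjusted p = 0.0313). PURB ran from -1.08 to -0.81 with 1 library left out. The median of all members was 0.11 among protein-coding genes, 0.21 with recomputed TPM and 0.14 with median-ratio rescaling. In the same order, the median of all tested genes was -0.01, 0.08 and 0.01. The median of all members ran from -0.00403 to 0.0847 with 1 library left out.

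Small differences changed sign under some settings, and the cause was not tested. The list below covers only genes named by rule. Genes named after values were seen, SNRPB, INTS1, LSM8 and PRPF31 among them, are not in it. With recomputed TPM, LSM14A was at 0.00812, LSM12 at 0.0689, PRPF6 at 0.0529, SMN1 at 0.0101, LSM14B at 0.14 and SNRPA at 0.125. LSM14B was also at 0.066 and SNRPA at 0.0525 with median-ratio rescaling, at 0.0376 and 0.0237 among protein-coding genes, and LSM14B at 0.0373 with quantile normalization. With 1 library left out, differences ran from -0.0694 to 0.22 for COIL, -0.12 to 0.12 for PHAX, -0.16 to 0.24 for SMN2, -0.28 to 0.0065 for SMN1, -0.00825 to 0.34 for INTS11, -0.0814 to 0.30 for INTS10, -0.00702 to 0.29 for LSM1, -0.0353 to 0.22 for LSM5, -0.11 to 0.59 for LSM10, -0.18 to 0.0305 for LSM12, -0.0864 to 0.0639 for LSM14B, -0.0216 to 0.29 for PRPF40B, -0.0228 to 0.19 for PRPF18, -0.0666 to 0.32 for PRPF4, -0.105 to 0.37 for SNAPC4, -0.0606 to 0.18 for SNRPB2, -0.20 to 0.15 for SNRPA and -0.38 to 0.0356 for SNRPN.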
